A study of Mus musculus with 6 samples.

Results

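The 10 neuronal activity immediate early genes described here were *Arc*, *Fos*, *Fosb*, *Junb*, *Egr1*, *Egr2*, *Egr4*, *Nr4a1*, *Npas4* and *Ier2*. They were taken by gene name from the 51826 genes in the tables, and all 10 were among the 18345 genes with enough reads to be tested. Immediate early genes are switched on within minutes of neuronal firing, without new protein synthesis, when calcium entering through synaptic receptors and channels activates kinases that act on CREB and SRF at their promoters. Most encode transcription factors that go on to control a later set of genes, whereas *Arc* encodes a protein that acts at the synapse itself. Their transcripts are short-lived, and their level in cortex is widely used as a readout of recent neuronal activity.

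RNA was sequenced from the cortex of *Lgmn*+/+ and *Lgmn*-/- mice on day 3 after whole-brain irradiation with a single X-ray dose of 10 Gy, with 3 libraries per genotype (*Lgmn*+/+-IR and *Lgmn*-/--IR). *Lgmn* encodes asparagine endopeptidase (AEP), a lysosomal cysteine protease. The mice were BALB/c, and the knockout derived from a targeted embryonic stem cell clone. Both groups were irradiated and no sham library was analysed here, so each difference below is one of genotype after irradiation and not an effect of irradiation. The counts of *Lgmn* were 5558, 5528 and 5775 in *Lgmn*+/+-IR, against 3703, 3269 and 4109 after knockout (log2 fold change −0.64, adjusted p = 0.0315 by edgeR's quasi-likelihood test). Every knockout library was below every *Lgmn*+/+-IR library, although these counts span the whole gene and transcript remained in the knockout. The call was lost in 7 of 16 alternatives, among them without any 1 of the *Lgmn*+/+-IR libraries (edgeR's adjusted p from 0.103 to 0.131), with the log2 fold change between −0.74 and −0.54 throughout. Total counts ran from 41874462 to 46829441 per library, and the members had between 433 and 37169 counts in a library. Levels are given as CPM, the counts brought to a common library size with edgeR's TMM method, and a fold change above 0 on the log2 scale means a higher level in *Lgmn*-/--IR. The p values of the fold changes set the genotype difference against the spread between libraries of the same genotype, over these 6 libraries.

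The core of the cAMP response element, TGACG, to which CREB binds, was found before at least 1 start site of each member whose promoter could be read. RefSeq promoter entries on GRCm38.p6 were found for 7 of the 10 members, and *Arc*, *Egr1* and *Ier2* had none. Windows are shown for 6 of the 7, because CREB and SRF sites carry the activity response in the background given above. Each gives the bases just before a RefSeq start site, 5′ to 3′ on the strand of the gene and outside annotated exons (those of *Egr2* and *Nr4a1* lie in an intron, before an internal start site), and the capitals mark TGACG on either strand, TATAAA on the strand of the gene, or a CArG box, the SRF site.
*Fos*, chr12:85473760-85473889, plus strand: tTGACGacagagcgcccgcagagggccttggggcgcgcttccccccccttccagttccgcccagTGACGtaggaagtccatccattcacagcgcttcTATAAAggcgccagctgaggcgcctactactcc
*Fosb*, chr7:19310052-19310175, minus strand: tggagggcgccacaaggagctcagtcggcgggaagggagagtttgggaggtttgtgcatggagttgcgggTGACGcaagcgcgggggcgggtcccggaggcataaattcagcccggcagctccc
*Junb*, chr8:84978749-84978878, minus strand: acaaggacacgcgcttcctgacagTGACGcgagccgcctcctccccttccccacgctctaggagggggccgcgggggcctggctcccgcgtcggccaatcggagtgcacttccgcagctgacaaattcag
*Egr2*, chr10:67537739-67537868, plus strand: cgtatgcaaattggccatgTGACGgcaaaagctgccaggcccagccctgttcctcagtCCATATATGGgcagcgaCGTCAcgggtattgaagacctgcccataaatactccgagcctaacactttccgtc
*Egr4*, chr6:85513590-85513719, minus strand: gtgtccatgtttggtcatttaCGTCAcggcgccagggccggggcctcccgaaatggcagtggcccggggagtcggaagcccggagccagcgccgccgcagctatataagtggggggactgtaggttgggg
*Nr4a1*, chr15:101266716-101266845, plus strand: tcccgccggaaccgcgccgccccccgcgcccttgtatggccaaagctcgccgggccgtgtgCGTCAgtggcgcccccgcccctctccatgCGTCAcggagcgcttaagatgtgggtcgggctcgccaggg
In the 250 bases before a start site, TGACG on either strand was found in 9 of the 11 windows of the members, against 17.7% of 32817 such windows of RefSeq genes. *Egr2* had 5 start sites, 3 of them with a match, and the other 6 members had 1 each. By gene, with any start site counted, this was 7 of 7 members against 19.8% of 27025 RefSeq genes. Counted by gene in the same way, the full palindrome TGACGTCA was found in 0 of the 7 (1.77% of RefSeq genes). TATAAA was found in *Fos* alone of the 7 (8.94% of RefSeq genes) and a CArG box in *Egr2* alone (1.62% of RefSeq genes). The binding motif of the Egr proteins, GCGTGGGCG, was found in 0 of the 7 (0.622% of RefSeq genes). These letters do not show which factor was bound in the cortex.

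None of the 10 members passed an adjusted p of 0.05 in edgeR's quasi-likelihood test, and none was a DEG (the threshold of the study, which asks in addition for a log2 fold change beyond 1 in either direction). Of all genes tested, 3.33% passed the first threshold and 2.06% both. The log2 fold change was above 0 in 4 members and below 0 in 6, with a median of −0.23 against −0.01 over all genes tested. At an unadjusted p of 0.05 the count was 1 of 10, *Fosb*, where 18.6% of all genes passed. DESeq2 called 1 of 10, again *Fosb*, and 7.76% of all genes. *Fosb* was also the one member whose libraries did not overlap between genotypes, which held in this direction for 12.4% of all genes, and 0 members lay wholly below *Lgmn*+/+-IR (13.3% of all genes). In tissue RNA, fewer cells of a type and less RNA per cell cannot be told apart.

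**Figure D1:**
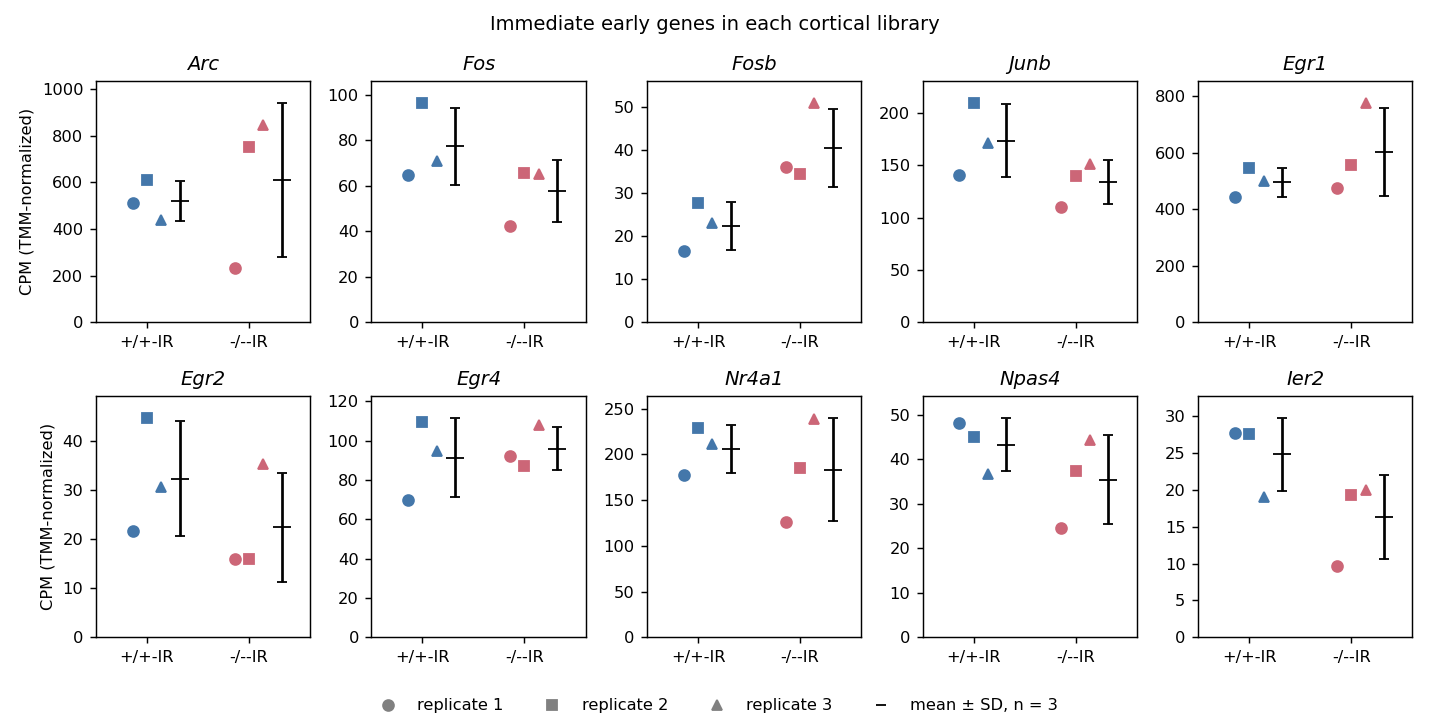
TMM-normalized CPM (y axis, from 0) of each member in the 3 *Lgmn*+/+-IR (blue) and 3 *Lgmn*-/--IR (red) libraries, with a symbol for each replicate and the mean ± SD in black. The groups are apart in *Fosb* alone, from 16.6 to 27.7 CPM in *Lgmn*+/+-IR and from 34.4 to 50.9 CPM in *Lgmn*-/--IR, and replicate 1 of *Lgmn*-/--IR is the lowest library in 7 of the 10 panels.

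The AP-1 members, whose proteins pair as Fos and Jun dimers on DNA, were divided among themselves. *Fosb* (chromosome 7, 19302696 to 19310051) encodes FosB and, by splicing, the stable truncated form ΔFosB that builds up with repeated activity, and the counts do not separate the forms. It had 16.6, 27.7 and 23.1 CPM in *Lgmn*+/+-IR replicates 1, 2 and 3 and 36.0, 34.4 and 50.9 CPM in *Lgmn*-/--IR replicates 1, 2 and 3. Every *Lgmn*-/--IR library was above every *Lgmn*+/+-IR library, with means of 22.5 ± 5.56 and 40.4 ± 9.11 CPM (SD, n = 3 each). This was a log2 fold change of 0.85 (standard error 0.22, 95% interval 0.32 to 1.38, edgeR's adjusted p = 0.103). With DESeq2 the adjusted p was 0.00725, and edgeR's did not pass with any library left out, when the log2 fold change lay between 0.65 and 1.03. The summed level of 7 heat shock genes was likewise higher in every *Lgmn*-/--IR library, with 1837, 2035 and 2158 CPM in *Lgmn*+/+-IR and 2565, 2564 and 3121 CPM in *Lgmn*-/--IR. The correlation of its log2 value with log2 CPM of *Fosb* over the 6 libraries was r = 0.96 (exact permutation p = 0.00972, adjusted p = 0.313 over 40 relations of members with marker sums) and rho = 0.94 (exact permutation p = 0.0167, adjusted p = 0.544). It was 0.84 without the 2 farthest libraries and 0.85 with the genotype means removed, and the part of these genes in the level of *Fosb* was not tested.

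*Fos* (chromosome 12, 85473890 to 85477273), the classical marker of recently active neurons, had 64.8, 96.4 and 70.7 CPM in *Lgmn*+/+-IR and 42.2, 65.9 and 65.4 CPM in *Lgmn*-/--IR. Replicate 2 of *Lgmn*+/+-IR was high and replicate 1 of *Lgmn*-/--IR low, and the other 4 libraries lay close together, so the groups overlapped. The log2 fold change of −0.42 (standard error 0.22, 95% interval −0.93 to 0.09) did not pass (edgeR's adjusted p = 0.355). *Junb* (chromosome 8, 84974484 to 84978718), a Jun partner of the Fos proteins, had 141, 209.6 and 171 CPM in *Lgmn*+/+-IR and 110.4, 139 and 151 CPM in *Lgmn*-/--IR. Its order of libraries was near that of *Fos*, with the same library highest and the same lowest, and the groups overlapped (log2 fold change −0.38, standard error 0.18, edgeR's adjusted p = 0.307). *Prdx2*, on the opposite strand, overlaps an exon of *Junb*, and the sources used here do not say whether the counting used strand. *Prdx2* counts were 7448, 8335 and 8375 in *Lgmn*+/+-IR, against 7454, 8837 and 6352 after knockout. The part of *Prdx2* reads in the *Junb* counts was not tested.

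Relative to *Fos* and *Junb*, *Fosb* was higher in every *Lgmn*-/--IR library than in every *Lgmn*+/+-IR library. The ratio of *Fosb* to *Fos* counts within a library was 0.257, 0.287 and 0.326 in *Lgmn*+/+-IR, against 0.853, 0.522 and 0.778 after knockout. The ratio of *Fosb* to *Junb* counts was 0.118, 0.132 and 0.135 in *Lgmn*+/+-IR, against 0.326, 0.247 and 0.337 after knockout. Such a gap was not particular to *Fosb*. The ratio of *Egr1* to *Egr2* counts was 20.5, 12.2 and 16.3 in *Lgmn*+/+-IR, against 29.7, 34.8 and 22.0 after knockout. The ratio of *Egr4* to *Egr2* counts overlapped between genotypes. Each library was compared with itself, so library size does not enter. These ratios were chosen after the values were seen and were not tested, and gene length is not taken into account in their level.

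**Figure D2:**
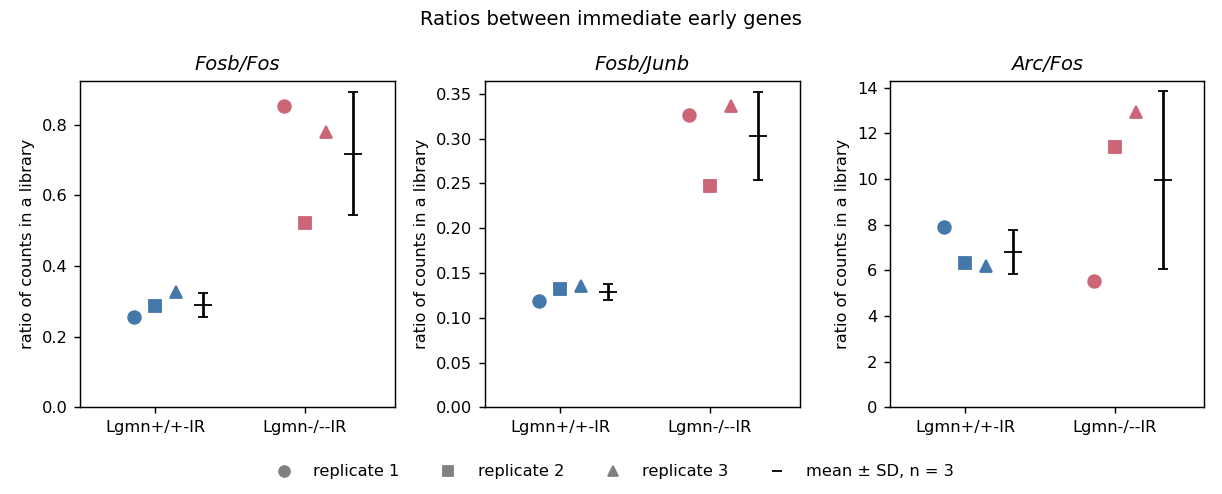
Ratios of the counts of 2 members within each library (y axis, from 0, no unit) for *Fosb* to *Fos*, *Fosb* to *Junb* and *Arc* to *Fos*, with a symbol for each replicate and the mean ± SD in black. The ratio of *Fosb* to *Fos* lies from 0.257 to 0.326 in *Lgmn*+/+-IR and from 0.522 to 0.853 in *Lgmn*-/--IR, and the ratio of *Arc* to *Fos* overlaps because replicate 1 of *Lgmn*-/--IR has 5.55.

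The Egr members encode zinc finger transcription factors that bind the same GC-rich motif. *Egr1*, needed for lasting synaptic plasticity, had 442, 546 and 499.5 CPM in *Lgmn*+/+-IR and 475, 556 and 777 CPM in *Lgmn*-/--IR. Only replicate 3 of *Lgmn*-/--IR stood clearly above the others, and the log2 fold change was 0.28 (standard error 0.19, 95% interval −0.15 to 0.72, edgeR's adjusted p = 0.467). *Egr2* (chromosome 10, 67535475 to 67542188), which is also a regulator of myelination in Schwann cells, had 21.6, 44.8 and 30.7 CPM in *Lgmn*+/+-IR and 16.0, 16.0 and 35.3 CPM in *Lgmn*-/--IR. It varied 2.07-fold within *Lgmn*+/+-IR and 2.21-fold within *Lgmn*-/--IR, and its log2 fold change was −0.53 (standard error 0.38, edgeR's adjusted p = 0.505). *Egr4* (chromosome 6, 85511121 to 85513589), a less studied activity-dependent member, had 69.6, 109.6 and 95.03 CPM in *Lgmn*+/+-IR and 92.5, 87.1 and 108.1 CPM in *Lgmn*-/--IR. The *Lgmn*-/--IR libraries lay inside the *Lgmn*+/+-IR range, and the log2 fold change was 0.069 (95% interval −0.34 to 0.48, edgeR's adjusted p = 0.864).

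*Nr4a1* (chromosome 15, 101254269 to 101274795) encodes Nur77, an orphan nuclear receptor that limits excitatory synapse density in active neurons. Its level was 178, 229 and 211 CPM in *Lgmn*+/+-IR and 126, 185 and 239 CPM in *Lgmn*-/--IR, so that *Lgmn*-/--IR held both the lowest and the highest library (log2 fold change −0.17 ± 0.23 standard error, edgeR's adjusted p = 0.734). *Npas4* (chromosome 19, 4984355 to 4990316), a bHLH-PAS factor induced by calcium almost exclusively in neurons, had 48.2, 45.1 and 36.6 CPM in *Lgmn*+/+-IR and 24.7, 37.4 and 44.3 CPM in *Lgmn*-/--IR. *Ier2* (chromosome 8, 84661331 to 84662852), a small nuclear protein induced by growth factors as well as by activity, had 27.8, 27.7 and 19.1 CPM in *Lgmn*+/+-IR and 9.75, 19.3 and 20.1 CPM in *Lgmn*-/--IR. In both genes replicate 1 of *Lgmn*-/--IR was far below every other library, and the remaining *Lgmn*-/--IR libraries lay above replicate 3 of *Lgmn*+/+-IR. The log2 fold change was −0.29 (standard error 0.22, edgeR's adjusted p = 0.524) for *Npas4* and −0.60 (standard error 0.29, 95% interval −1.28 to 0.07, edgeR's adjusted p = 0.318) for *Ier2*. Without replicate 1 of *Lgmn*-/--IR these values were −0.083 and −0.33.

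*Arc* (chromosome 15, 74669083 to 74672570), whose protein drives the internalization of AMPA receptors and forms capsid-like particles, was the member that differed most between *Lgmn*-/--IR libraries. It had 513, 609 and 438 CPM in *Lgmn*+/+-IR and 234, 751 and 847 CPM in *Lgmn*-/--IR. Replicate 1 of *Lgmn*-/--IR was below, and the other 2 above, every *Lgmn*+/+-IR library. The highest library was 3.62 times the lowest within *Lgmn*-/--IR and 1.39 times the lowest within *Lgmn*+/+-IR. The means were 519.9 ± 86.0 and 611 ± 329.7 CPM (SD, n = 3 each), and the log2 fold change was 0.23 (standard error 0.42, edgeR's adjusted p = 0.809), with a 95% interval from −0.76 to 1.23. Without replicate 1 of *Lgmn*-/--IR it was 0.62 (edgeR's adjusted p = 0.125), and without replicate 3 it was −0.075. The ratio of *Arc* to *Fos* counts was 7.91, 6.32 and 6.19 in *Lgmn*+/+-IR, against 5.55, 11.4 and 12.9 after knockout.

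Per transcript length, in FPKM, *Arc* and *Egr1* were the most abundant members and *Fosb* the least in *Lgmn*+/+-IR. The means were 152 FPKM for *Arc*, 99.8 for *Egr1*, 85.8 for *Junb*, 74.6 for *Nr4a1*, 38.0 for *Egr4*, 34.1 for *Fos*, 14.6 for *Ier2*, 11.8 for *Npas4*, 9.87 for *Egr2* and 5.99 for *Fosb*. The *Lgmn*+/+-IR ranges of neighbours in this order were apart between *Arc* and *Egr1*, between *Nr4a1* and *Egr4* and between *Fos* and *Ier2*, and overlapped at the other steps. Within a library the order was steadier. From *Arc* to *Ier2* it was the same in each *Lgmn*+/+-IR library, and *Npas4* and *Egr2* changed places in replicate 2. *Fosb* was in position 10 in each *Lgmn*+/+-IR library and in positions 6, 9 and 7 in *Lgmn*-/--IR replicates 1, 2 and 3. *Junb* was listed at 0 FPKM in replicate 1 of *Lgmn*-/--IR although it had 4903 counts there. It was the one gene with at least 1000 counts in a library that was listed at 0 FPKM in that library, so the position of *Fosb* there counts *Junb* as lowest. In the other libraries *Junb* had from 68.7 to 104.7 FPKM.

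Most members were high in the same libraries and low in the same libraries. Replicate 1 of *Lgmn*-/--IR was the lowest of the 6 libraries in 7 members, and replicate 1 of *Lgmn*+/+-IR was the lowest in the other 3 (*Fosb*, *Egr1* and *Egr4*). Replicate 2 of *Lgmn*+/+-IR and replicate 3 of *Lgmn*-/--IR were each among the 3 highest libraries in 9 members. The summed level of the 10 genes was 1522, 1946 and 1595 CPM in *Lgmn*+/+-IR and 1166, 1892 and 2338 CPM in *Lgmn*-/--IR, a ratio of group means of 1.07. The lowest and the highest sums were both in *Lgmn*-/--IR. *Arc* and *Egr1* made up 58.8% to 69.4% of the sum. The median SD of log2 CPM over the members was 0.29 in *Lgmn*+/+-IR and 0.40 in *Lgmn*-/--IR, against 0.17 and 0.20 over all genes tested.

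**Figure D3:**
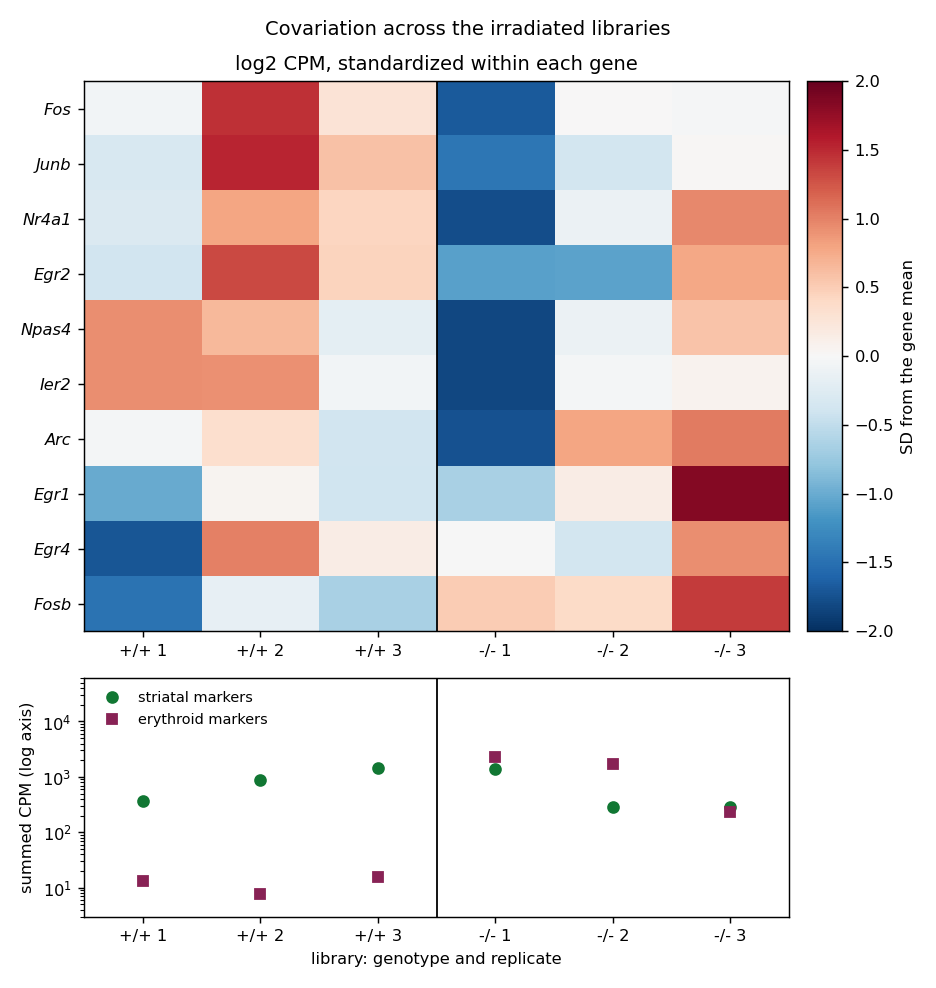
Upper panel, log2 CPM of each member (y axis) in each library (x axis, genotype and replicate) as the distance from the mean of the gene in SD, blue below and red above. Lower panel, summed CPM of 6 striatal and 5 erythroid markers in the same libraries on a log axis. The column of *Lgmn*-/--IR replicate 1 is the darkest blue in 7 members, and *Fosb* in the bottom row is the one gene that is blue in all *Lgmn*+/+-IR and red in all *Lgmn*-/--IR libraries.

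Of the 45 pairs of members, 39 had a Pearson correlation of log2 CPM above 0 over the 6 libraries, with a median r of 0.62. With the mean of each genotype removed, all 45 were above 0 and the median was 0.75. The points share their libraries and scaling, and 6 libraries give little power. In exact permutation tests 6 pairs had an unadjusted p under 0.05 and 0 passed after adjustment over the 45 pairs (smallest adjusted p = 0.0625). The closest pair was *Npas4* and *Ier2* (r = 0.97, exact permutation p = 0.00139, adjusted p = 0.0625, and rho = 1.00, exact permutation p = 0.00278, adjusted p = 0.125), and r was 0.72 without the 2 libraries farthest from the median of *Npas4*. Next came *Fos* and *Junb* (r = 0.96, exact permutation p = 0.00556, adjusted p = 0.125, and rho = 0.83, exact permutation p = 0.0583, adjusted p = 0.510), where r was 0.91 without the 2 farthest libraries of *Fos*. Other pairs rested on their 2 farthest libraries. Without those of the first gene, *Arc* and *Nr4a1* went from r = 0.82 to −0.17, and *Fos* and *Ier2* from 0.86 to −0.54. *Egr2* and *Nr4a1*, in contrast, went from 0.83 to 0.87. *Fosb* stood apart from the rest, with a median r of 0.03 with the other members and values from −0.46 with *Ier2* to 0.81 with *Egr1*. With the genotype means removed, *Fosb* had r of 0.63 with *Fos*, 0.84 with *Junb* and 0.97 with *Egr2*.

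Genes outside the list could follow the members as closely over so few libraries. The 8 genes whose log2 CPM was most like the mean of the standardized members were *Syne1* (r = 0.98 over 6 libraries), *Lncpint*, *Daam1*, *Epb41l2*, *Pcdha11*, *Pth2r*, *Cep250* and *Pola1*, down to r = 0.95. An r over 0.8 was found for 181 of the 18335 genes outside the members (0.987%), for 5 of the 10 members, which enter the mean themselves, and for 5 of 32 other rapid response genes. The count was 1 of 9 paralogs of the members and 0 of 16 later activity-regulated genes (median r 0.02). It was also 1 of 8 neuron markers and 1 of 4 hippocampal markers. *Syne1*, which encodes a nuclear envelope spectrin repeat protein, had 326, 375 and 339 CPM in *Lgmn*+/+-IR and 312, 339 and 374 CPM in *Lgmn*-/--IR. *Lncpint* had only 5 to 14 counts per library.

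Striatal marker genes varied between the cortical libraries of both genotypes. The 6 markers (among them the dopamine receptors *Drd1* and *Drd2*), none of which was called and none at 0, summed to 363, 892 and 1457 CPM in *Lgmn*+/+-IR and to 1364, 284 and 292 CPM in *Lgmn*-/--IR. Replicate 1 of *Lgmn*-/--IR, the lowest library of 7 members, had the highest striatal sum of its genotype. Replicate 3 of *Lgmn*+/+-IR had the highest striatal sum of the 6 libraries. That replicate was the lowest library of 0 members and among the 2 lowest in 4, with the lowest *Arc*, *Npas4* and *Ier2* of its genotype. Of the 10 members, 7 had r below 0 with the log2 striatal sum, and *Junb*, *Egr2* and *Egr4* were above 0 (r = 0.09, 0.12 and 0.26). The lowest was *Arc*, which did not pass adjustment (r = −0.77, exact permutation p = 0.0625, adjusted p = 0.313 over 40 relations, and rho = −0.83, exact permutation p = 0.0583, adjusted p = 0.544). For *Arc*, r was −0.45 without the 2 libraries farthest from the median. With the genotype means removed, r was −0.81 for *Arc* and −0.92 for *Npas4* and *Ier2*, with 8 members below 0 and 2 above. With the log2 striatal sum as a covariate, an alternative chosen after the data were seen, edgeR called *Ier2* alone of the members (log2 fold change −0.92, adjusted p = 0.0421, where 3.05% of all genes were called). The same fit gave log2 fold changes of 0.88 for *Fosb* (adjusted p = 0.143), −0.51 for *Npas4* (adjusted p = 0.108) and −0.35 for *Arc* (adjusted p = 0.599).

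Markers of other cell types also moved with genotype. All 5 erythroid markers were higher in *Lgmn*-/--IR, and their sum was 7.59 to 15.8 CPM in *Lgmn*+/+-IR and 234 to 2273 CPM in *Lgmn*-/--IR. Of 6 oligodendrocyte markers, 5 were lower, with sums of 3402 to 4124 CPM against 2243 to 2408 CPM (*Mobp* log2 fold change −1.12, edgeR's adjusted p = 0.00330). Among 7 heat shock genes 4 were higher, led by *Hspa1b* (log2 fold change 2.78, edgeR's adjusted p = 0.00278). One of 6 astrocyte markers, *Aqp4*, was higher, all 6 had a log2 fold change above 0, and 5 had libraries that did not overlap (12.4% of all genes in this direction). Among 14 clock genes *Arntl* was higher (log2 fold change 0.75) and *Dbp* lower (log2 fold change −0.67). Of these calls *Mobp* and *Hspa1b* held in all 16 alternatives, *Dbp* in 13, *Arntl* in 9 and *Aqp4* in 8, and *Arntl* and *Aqp4* were lost without any 1 of the *Lgmn*+/+-IR libraries. The 8 pan-neuronal markers summed to 7242 to 8140 CPM in *Lgmn*+/+-IR and 7846 to 9213 CPM in *Lgmn*-/--IR with 0 called by edgeR, and 0 of 6 excitatory, 6 inhibitory, 6 microglial, 6 endothelial, 4 hippocampal and 6 choroid plexus markers and of 8 glucocorticoid responsive genes were called by edgeR. At an unadjusted p of 0.05 the counts were 1 neuronal, 2 inhibitory, 2 microglial, 1 endothelial and 1 hippocampal marker, and DESeq2 called 1 inhibitory, 1 microglial, 1 endothelial and 1 hippocampal marker. Over all genes, edgeR called 3.33%, 18.6% had an unadjusted p under 0.05 and DESeq2 called 7.76%. Of 6 leukocyte markers, 1 had enough reads to be tested, and it was not called, and 2 were at 0 in every library. Of 40 relations between a member and the log2 sum of striatal, erythroid, oligodendrocyte or heat shock genes, 4 had an unadjusted exact permutation p under 0.05 by Pearson's r and 0 passed adjustment (smallest adjusted p = 0.313). With the genotype means removed, all 10 members had r below 0 with the erythroid sum (−0.94 for *Egr1* to −0.53 for *Egr4*) and above 0 with the heat shock sum (0.17 to 0.87). Before that step, 7 members were below 0 with the erythroid sum and 5 with the heat shock sum. After it, 8 were below 0 and 2 above with the striatal sum (−0.92 to 0.36), and 3 below and 7 above with the oligodendrocyte sum. The members covary over the same 6 libraries, so the 10 signs are not separate results. The erythroid sum was 2273, 1728 and 234 CPM in *Lgmn*-/--IR replicates 1, 2 and 3. The part of these differences in the values of the members was not tested.

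No paralog of the members was called, although *Egr3* and *Nr4a3* had a larger fold change than *Fosb* (2.23-fold and 2.15-fold higher). Of 9 paralogs in the Fos, Jun, Egr, Nr4a and Ier families, 0 passed edgeR's adjusted p of 0.05 and all 9 had a log2 fold change above 0, with a median of 0.39 against −0.01 over all genes. At an unadjusted p of 0.05 the count was 4 of 9 (18.6% of all genes), and DESeq2 called 2 of them, *Jund* and *Egr3* (7.76% of all genes). *Egr3*, which encodes a zinc finger factor of the same family as *Egr1*, had 47.1, 60.0 and 59.9 CPM in *Lgmn*+/+-IR and 94.9, 86.8 and 190.7 CPM in *Lgmn*-/--IR. Its log2 fold change of 1.16 (standard error 0.30) had an adjusted p of 0.0990 in edgeR. *Jund*, a Jun gene with high basal expression, had 232, 246 and 218 CPM in *Lgmn*+/+-IR and 280.3, 291 and 303 CPM in *Lgmn*-/--IR (0.33 on the log2 scale, edgeR's adjusted p = 0.0934). *Fosl2* was the third paralog whose libraries did not overlap, from 22.6 to 53.7 CPM in *Lgmn*+/+-IR and from 65.3 to 74.8 CPM in *Lgmn*-/--IR (edgeR's adjusted p = 0.269). Libraries that did not overlap, with *Lgmn*-/--IR higher, were thus found in 3 of 9 paralogs, against 12.4% of all genes.

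Among 32 other rapid response genes, edgeR called 1 lower and 0 higher, and the median log2 fold change was −0.05. At an unadjusted p of 0.05 the count was 7 of 32, where 18.6% of all genes passed. DESeq2 called 1 lower and 1 higher (*Ptgs2*, cyclooxygenase-2, log2 fold change 0.64 and adjusted p = 0.0906 in edgeR), and 7.76% of all genes. The libraries did not overlap in 5 genes with *Lgmn*-/--IR lower (13.3% of all genes) and in 1 with it higher. The one edgeR call was *Btg2*, an antiproliferative gene induced by both p53 and neuronal activity, with 47.8, 46.3 and 45.1 CPM in *Lgmn*+/+-IR and 17.9, 28.7 and 25.4 CPM in *Lgmn*-/--IR. All *Lgmn*-/--IR libraries were below all *Lgmn*+/+-IR libraries (log2 fold change −0.95, standard error 0.17, edgeR's adjusted p = 0.0313). A single call in 32 is to be read against 1.68% of all genes called lower. It was not called without any 1 of the *Lgmn*+/+-IR libraries or without replicate 3 of *Lgmn*-/--IR (adjusted p from 0.0958 to 0.119).

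The list named later activity-regulated genes held 5 calls. When each of these genes is induced was not measured here, so the list name does not set them apart in time from immediate early genes. Of the 16 genes listed, 5 were called higher in *Lgmn*-/--IR and 0 lower, and the median log2 fold change was 0.61, where 1.65% of all genes were called higher. The libraries did not overlap, with *Lgmn*-/--IR higher, in 9 of the 16 (12.4% of all genes). This list, like the others, was chosen with earlier results of these data known. Its counts beside the shares of all genes are therefore a description and not an independent test. *Nptx2*, a secreted pentraxin that gathers AMPA receptors at synapses, had 47.7, 48.5 and 46.6 CPM in *Lgmn*+/+-IR and 88.0, 102.1 and 132 CPM in *Lgmn*-/--IR. *Homer1*, a postsynaptic scaffold with a short activity-induced form, had 117, 112 and 110.4 CPM in *Lgmn*+/+-IR and 212, 203 and 292 CPM in *Lgmn*-/--IR. These counts do not separate the short form from the others. *Pcsk1*, a prohormone convertase, had 31.97, 31.9 and 29.5 CPM in *Lgmn*+/+-IR and 58.0, 54.3 and 88.8 CPM in *Lgmn*-/--IR. In all 3 genes the *Lgmn*+/+-IR libraries lay close together and the lowest *Lgmn*-/--IR library was far above them. Their log2 fold changes were 1.17 ± 0.15, 1.06 ± 0.15 and 1.11 ± 0.19 (standard error), with edgeR's adjusted p of 0.00950 for *Nptx2*, 0.0125 for *Homer1* and 0.0276 for *Pcsk1*. The other calls were *Baz1a*, a chromatin remodeller (log2 fold change 1.04, edgeR's adjusted p = 0.0420), and *Crh*, corticotropin-releasing hormone (log2 fold change 0.69, edgeR's adjusted p = 0.0497). *Bdnf*, the neurotrophin most used as a late activity marker, had 24.7, 22.3 and 19.7 CPM in *Lgmn*+/+-IR and 30.5, 36.8 and 46.4 CPM in *Lgmn*-/--IR, and did not pass (log2 fold change 0.77, edgeR's adjusted p = 0.0627).

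The count of 5 was smaller without any 1 library. It was 1 without replicate 1, 0 without replicate 2 and 0 without replicate 3 of *Lgmn*+/+-IR, and 3 or 4 without each *Lgmn*-/--IR library in turn. *Nptx2* passed in 13 of 16 alternatives, *Homer1* in 12 and *Pcsk1* in 11, and their lowest log2 fold changes were 0.999, 0.81 and 0.85. *Baz1a* passed in 6 and *Crh* in 2, and both were lost without each library in turn, the 3 *Lgmn*-/--IR libraries included (adjusted p up to 0.138 for *Baz1a* and 0.166 for *Crh*). *Penk* and *Tac1*, the 2 genes of the list with a log2 fold change below 0, are abundant in the striatum and were high in the libraries with a high striatal sum, with 82.5, 331 and 457 CPM of *Penk* in *Lgmn*+/+-IR and 505, 107 and 96.5 CPM in *Lgmn*-/--IR. The erythroid, oligodendrocyte and heat shock differences given above lie between the same libraries, and their part in the later genes was not tested.

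**Figure D4:**
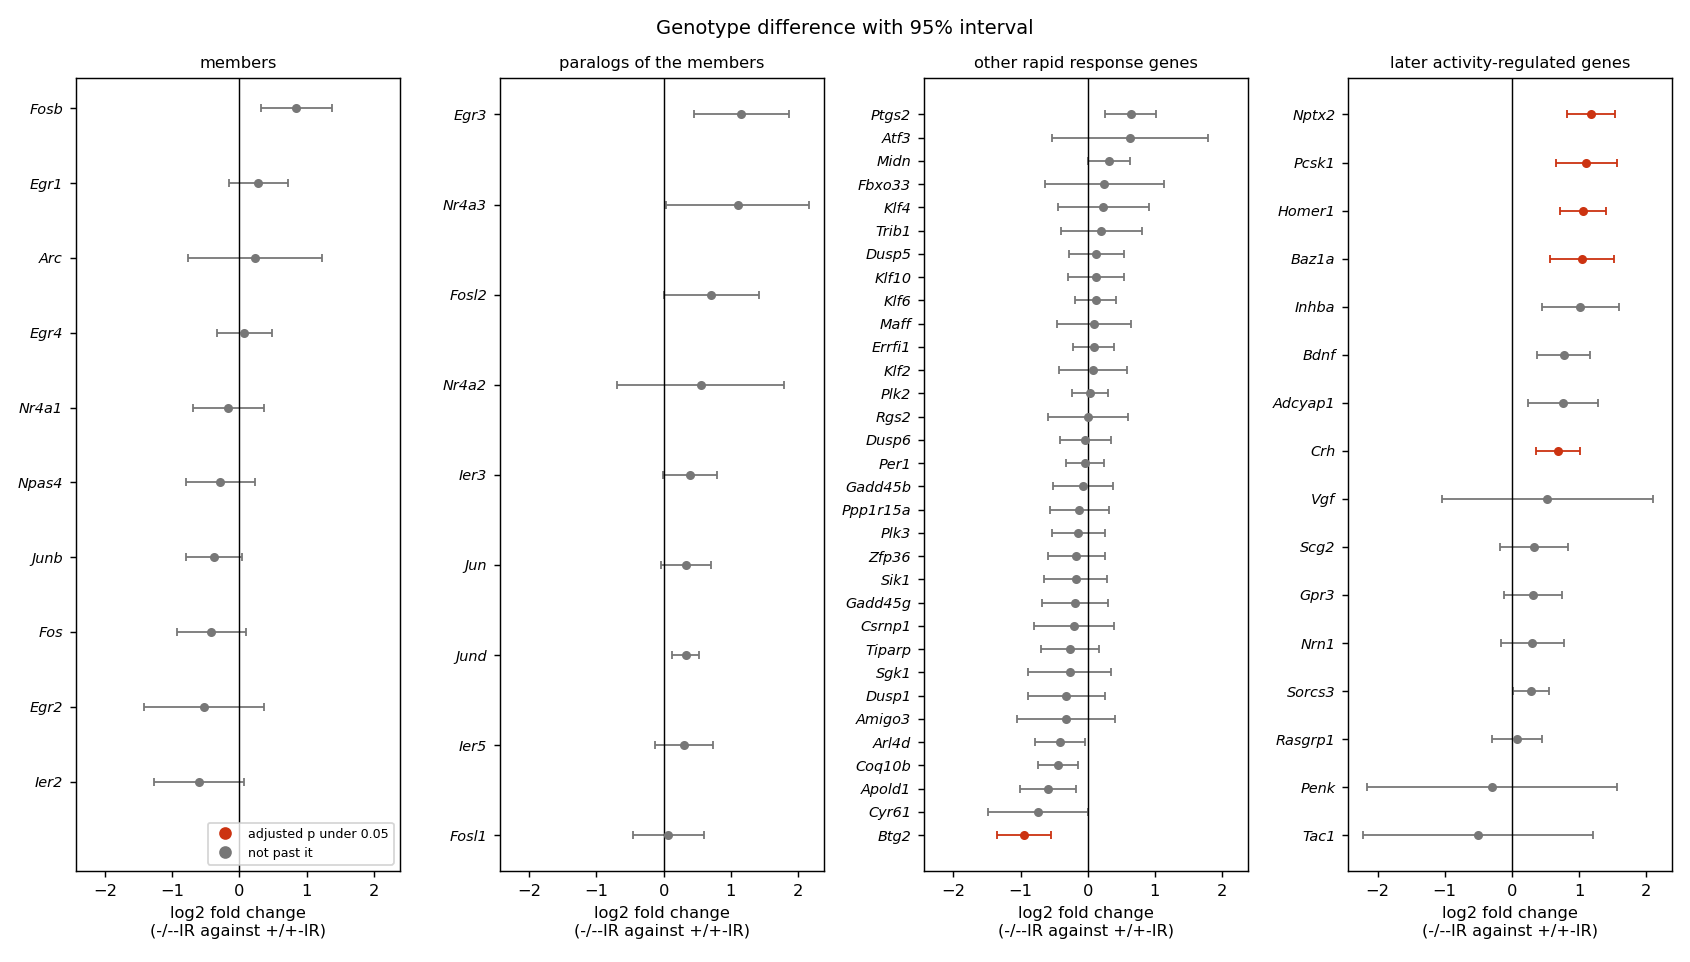
Log2 fold change of *Lgmn*-/--IR against *Lgmn*+/+-IR (x axis) with its 95% interval for the members, their paralogs, other rapid response genes and later activity-regulated genes, 1 panel per list, with red for an adjusted p under 0.05. No member or paralog is red, *Btg2* is the one red gene below 0, and 5 later genes are red above 0.

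The genes that carry the signal from the synapse to the promoters showed no call. Among 5 glutamate receptor and calcium channel genes, 13 kinase and phosphatase genes and 17 transcription factor and cofactor genes, which include *Creb1*, *Srf* and *Mef2c*, edgeR called 0, and the median log2 fold changes were 0.01, −0.01 and 0.11. Of these 35 genes, 4 had an unadjusted p under 0.05 and DESeq2 called 2. Over all genes, edgeR called 3.33%, 18.6% had an unadjusted p under 0.05 and DESeq2 called 7.76%. These counts are therefore not read as a result about the 35 genes.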

How the data were processed

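Bulk RNA sequencing of 6 cortical samples was analysed from the deposited tables. The authors filtered reads with Trimmomatic 0.36 (GRCm38 per the submitters' processing notes), mapped them with HISAT2 and deposited raw read counts per gene, without normalization. The authors computed expression with StringTie and deposited FPKM, which takes account of transcript length and library depth. The read counter and its use of strand are not given in the sources used here. Depth was 41874462 to 46829441 counts per library, and libraries of 1 genotype differed by more than sampling noise. The number of value columns left unused was 0.

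The fit used edgeR 4.0.16 under R 4.3.3, with TMM scaling, filterByExpr, genotype as the single term, the quasi-likelihood F-test and Benjamini-Hochberg adjustment over 18345 genes. DEGs follow the thresholds of the study. Standard errors come from the F statistic. Correlations used log2 CPM with a prior count of 2. The tests were tried on simulated counts. Positions come from GENCODE M21 and promoters from RefSeq. FPKM were not tested as the main result.

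The genes named are the members, called genes of the pathway lists (up to 8 a list) and of the marker lists (up to 3), and the 8 genes most like the members. *Egr3*, *Nr4a3*, *Jund*, *Fosl2*, *Ptgs2*, *Bdnf*, *Penk*, *Tac1* and the ratios were chosen after their values were seen, and so were *Syne1* and *Lncpint* for description. The members and lists were chosen with earlier results of these data known. Same-numbered libraries are different animals, and their deviations from the group means correlated at −0.252, −0.046 and −0.028, so the replicate number was not taken as a pairing. Alternatives were DESeq2 1.42.0, limma 3.58.1 (voom, and log2 FPKM with pseudocounts of 1 and 0.1), RLE and upper quartile normalization, no filter or at least 10 counts in every library, the replicate block, each library left out and the striatal covariate.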

Additional observations from a re-analysis of the deposited data

How the results depend on the processing

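The count of members called was 0 by edgeR, 1 by DESeq2 (*Fosb*, log2 fold change 0.86) and 1 with the striatal covariate (*Ier2*), and 0 under the other alternatives, including each library left out in turn. No member passed both thresholds under any of the 16 alternatives. The count among the paralogs and other rapid response genes was 1 by edgeR, 4 by DESeq2, 0 without a filter on low counts, 0 with the replicate block and 0 to 2 with each library left out, and the cause was not tested. With a replicate block, which the correlations of same-numbered libraries did not bear out (mean −0.109), edgeR called 150 genes in place of 611, 0 members, 0 paralogs or rapid response genes and 0 of the 16 later genes. Over all genes the count was 404 without a filter on low counts, 406 with at least 10 counts in every library and 223 to 500 with each library left out. DESeq2 called 1423 genes and 8 of the later genes, and 2 of the later genes were called without a filter on low counts. *Arc* changed sign on log2(FPKM + 1) (−0.00042) and log2(FPKM + 0.1) (−0.0020) and with the striatal covariate (−0.35). With each library left out, *Arc* ran from −0.075 (without *Lgmn*-/--IR replicate 3) to 0.62 (without *Lgmn*-/--IR replicate 1). Likewise *Egr4* ran from −0.086 (without *Lgmn*+/+-IR replicate 1, and also below 0 without *Lgmn*-/--IR replicate 3) to 0.22, and *Nr4a1* from −0.40 to 0.044 (without *Lgmn*-/--IR replicate 1). No alternative brought *Arc*, *Egr4* or *Nr4a1* past the threshold. *Junb* had −3.43 on log2(FPKM + 0.1), which holds its listed 0. The summed level of the members had a ratio of 1.07, and of 0.906 to 1.25 with each library left out. In FPKM the ratio was 0.948, and this sum also holds the listed 0 of *Junb* in replicate 1 of *Lgmn*-/--IR. The members had at least 433 counts in a library, and their 95% intervals ran from −0.34 to 0.48 for *Egr4* and from −0.76 to 1.23 for *Arc*.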
